A study of Mus musculus with 18 samples.

Results

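Bone marrow neutrophils of wild-type (WT) mice that had been cultured for 24 h in GM-CSF were compared with unstimulated WT neutrophils. The comparison held 6 of the 18 RNA-seq libraries of the series, chosen by their column names in the deposited count table, with 3 libraries in each group. The 24 h group was cultured in medium with 100 ng/mL GM-CSF, in RPMI1640 with fetal calf serum. The unstimulated group was lysed directly after sorting. Both groups came from mice aged 10 weeks with no targeted allele, and the labels give no strain and no sex. The other libraries were WT cells after 4 h in GM-CSF and libraries labelled CIS-/- (CIS is the protein of Cish) at each time. Cells had been isolated by FACS and then divided among the times. No group was cultured without GM-CSF, so time in culture and exposure to GM-CSF cannot be told apart in any value given here. One label of the treatment writes 42 h where the sample titles and the extraction protocol write 24 h, and 24 h is used here. The labels do not say whether the 3 libraries of a group came from separate mice, so p-values measure the spread between libraries, which may be technical.

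GM-CSF (granulocyte-macrophage colony-stimulating factor, encoded by Csf2) binds a receptor made of its own alpha chain, Csf2ra, and the common beta chain, Csf2rb. The beta chain carries the kinase Jak2, which phosphorylates the transcription factor Stat5; Cish and Socs proteins are induced by Stat5 and dampen the same receptors. Neutrophils are short-lived phagocytes that make most of their granule proteins while they mature in the marrow. GM-CSF is known to prolong their survival and to prime them for phagocytosis, degranulation and the oxidative burst.

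The 6 libraries held 14378755 to 22455449 counts, and between 15366 and 16744 annotated genes had at least 1 count in each. Expression is given as CPM, counts scaled to library size with edgeR's TMM factors, and values without a spread are means of 3 libraries. Among the genes named here, at 10 CPM or more, the SD of a group had a median of 2.63% of its mean and reached 13.3% at most. In bulk RNA, fewer cells of a type and less RNA per cell cannot be told apart. The 50 most abundant genes took 18.0 to 18.1% of the counts at 24 h, against 25.8 to 26.0% in unstimulated cells. Transcripts of the mitochondrial genome took 0.147 to 0.170% at 24 h and 0.200 to 0.216% in unstimulated cells. These shares do not cover all of that genome, as 5 of its 13 protein-coding genes had 0 counts in both groups.

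The labelled cell type was checked on its markers. The summed CPM of 12 neutrophil markers lay between 34600 and 35900 at 24 h and between 108000 and 109000 in unstimulated cells, and Csf3r, the G-CSF receptor, averaged 5900 and 4220 CPM. Ly6g, the surface antigen used to sort mouse neutrophils, had 59.4, 58.0 and 53.6 CPM at 24 h, against 482, 446 and 479 CPM in unstimulated cells. Markers of other lineages differed in level. The 10 natural killer markers summed to 0.174 to 0.294 CPM at 24 h and 0.336 to 0.550 CPM in unstimulated cells, 12 T cell markers to 2.61 to 3.06 CPM and 7.28 to 9.56 CPM, and 9 megakaryocyte markers to 3.79 to 4.56 CPM and 5.69 to 7.19 CPM. The 12 dendritic cell markers summed to 25.2 to 25.6 CPM at 24 h and 57.5 to 63.3 CPM in unstimulated cells, and 17 eosinophil, basophil and mast cell markers to 62.6 to 73.1 CPM and 56.6 to 62.1 CPM. The 13 B cell markers summed to 80.6 to 84.9 CPM at 24 h and 190 to 196 CPM in unstimulated cells, nearly all of it Ighm, the mu heavy chain, at 80.9 and 190 CPM, while Cd79a had 2 counts over the 3 libraries at 24 h and 21 in unstimulated cells. The 22 matched monocyte and macrophage markers summed to 552 to 573 CPM at 24 h and 799 to 842 CPM in unstimulated cells. Of these, C1qa had 0 counts over the 3 libraries at 24 h and 15 in unstimulated cells. Csf1r averaged 163 CPM at 24 h and 265 CPM in unstimulated cells, and Ly6c2 averaged 45.4 and 463 CPM, while Adgre1, which encodes F4/80, averaged 344 and 58.1 CPM. Besides the eosinophil, basophil and mast cell list, the sums of 2 lists were higher at 24 h. The 11 progenitor markers summed to 311 to 324 CPM at 24 h and 36.8 to 39.1 CPM in unstimulated cells, nearly all of it at 24 h Kit, the stem cell factor receptor, at 187 and 17.9 CPM, and Ly6a, which encodes Sca-1, at 131 and 0.319 CPM, while Cd34 had 10 and 6 counts over the 3 libraries. The 12 endothelial and stromal markers summed to 222 to 231 CPM at 24 h and 75.5 to 78.2 CPM in unstimulated cells, most of it Acta2, smooth muscle actin, at 194 and 71.5 CPM, while Cdh5 had 0 counts at 24 h and 1 in unstimulated cells and Col3a1 had 0 in both. The part that any of these lineages plays in the values below was not tested.

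Of 11569 genes tested, 9068 (78.4%) changed at an adjusted p below 0.05 in edgeR's quasi-likelihood test with Benjamini-Hochberg adjustment. These were 4707 genes (40.7%) higher at 24 h and 4361 genes (37.7%) lower. Counts of list members that rose or fell at 24 h are to be read against these shares. Changes of at least 2-fold numbered 4004 (34.6%), 1954 higher (16.9%) and 2050 lower (17.7%), those of at least 8-fold 471 and 395, and those of at least 32-fold 173 and 68. The libraries of the groups did not overlap in 79.9% of genes. The median log2 fold change of all genes was 0.05. Without the TMM factors it was 0.36 and the split of calls was 6352 higher and 3164 lower, so directions of small changes depend on that scaling, and those that do are named as such. In the text "rose" and "fell" stand for genes past the adjusted p of 0.05, and among those named the largest adjusted p was 0.017.

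**Figure D1:**
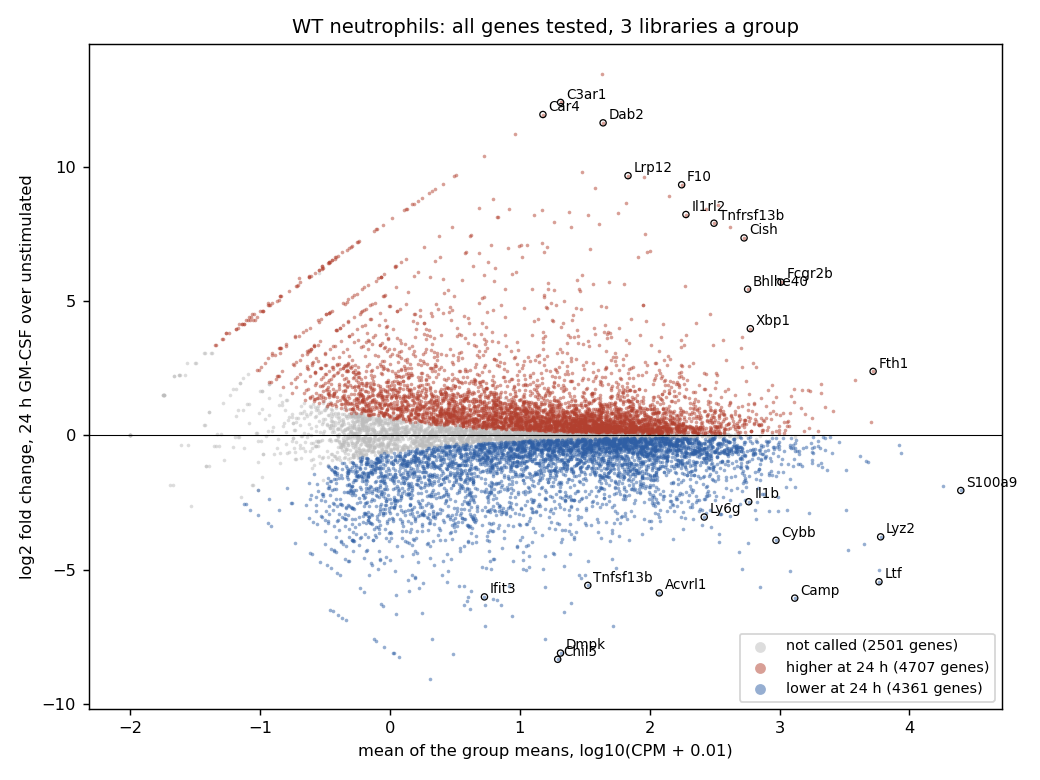
Log2 fold change of 24 h GM-CSF over unstimulated WT neutrophils (y axis) against the mean of the group means in log10(CPM + 0.01) (x axis), 1 point per gene tested. Red points are the 4707 genes higher at 24 h, blue points the 4361 lower and grey points those that did not pass the test. Circled genes are named in the text, from C3ar1, absent from unstimulated libraries, to S100a9, which had the highest CPM of all genes in both groups.

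The largest rises, ranked by fold change, were in genes with almost no transcript in fresh neutrophils, which such a ranking favours. C3ar1, the receptor for the complement fragment C3a (ENSMUSG00000040552.8, chr6:122847138-122856161 on GRCm38), had 42.0, 43.2 and 38.5 CPM at 24 h and 0 counts in all 3 unstimulated libraries, at least 689-fold higher when the 0 is replaced by 3 counts for the group as a whole. Car4, a membrane carbonic anhydrase, had 29.6, 31.4 and 29.5 CPM at 24 h and again 0 counts unstimulated, at least 503-fold higher. The long noncoding RNA D7Ertd128e had 17.6, 19.6 and 17.9 CPM at 24 h and 0 counts unstimulated, at least 307-fold higher. All 3 genes were detected in every 24 h library and in no unstimulated one. E330020D12Rik, a noncoding transcript left out by the naming rule and chosen after its values were seen, had 83.9 to 86.1 CPM at 24 h and 0 counts unstimulated, at least 1420-fold higher.

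Dab2, an endocytic adaptor, had 84.4, 91.5 and 86.6 CPM at 24 h and 1 count over the unstimulated libraries, a ratio of 4380 with a 95% counting interval of 786 to 173000. Hbegf, a growth factor of the EGF family, had 58.7, 61.3 and 59.5 CPM at 24 h and 0.122, 0.0672 and 0 CPM unstimulated, a ratio of 997 (interval 341 to 4840). The glutathione transferase Gstt3 had 12.8, 13 and 11 CPM at 24 h and 1 count unstimulated, a ratio of 618 (interval 111 to 24400). These intervals cover counting error only. Among genes with more counts, coagulation factor F10 had 357, 344 and 356 CPM at 24 h, against 0.306, 0.739 and 0.591 CPM in unstimulated cells, a log2 fold change of 9.32 ± 0.08 (SE). Gpr55, a G protein-coupled receptor for lysophosphatidylinositol, had 283, 285 and 272 CPM at 24 h, against 0.306, 0.739 and 0.698 CPM unstimulated. Lrp12, a membrane protein, had 136, 138 and 136 CPM at 24 h and 0.0611 to 0.269 CPM unstimulated. Ly6a had 137, 134 and 121 CPM at 24 h and 0.245 to 0.376 CPM unstimulated. The glycoprotein Gpnmb averaged 76.1 and 0.119 CPM, and the noncoding RNA AU020206 averaged 179 and 0.213 CPM. No overlap of the libraries and an adjusted p below 0.05 were conditions for naming these genes. Of all genes 79.9% did not overlap. The edgeR adjusted p of these genes was at most 1.8e-33.

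The largest falls were in genes that fresh neutrophils transcribe, as the floor of 10 CPM in 1 of the groups requires. Most of them, but not Camp, were nearly absent at 24 h. Chil5, a chitinase-like secreted protein, had 0.233, 0.0696 and 0.0490 CPM at 24 h, against 39.5, 38.3 and 39.2 CPM in unstimulated cells, a log2 fold change of -8.33 ± 0.16. Camp, the cathelicidin antimicrobial peptide, had 40.4, 37.1 and 38.9 CPM at 24 h, against 2620, 2620 and 2500 CPM unstimulated, a log2 fold change of -6.06 ± 0.06. Acvrl1, a receptor of the TGF-beta family also called ALK1, had 4.52, 3.51 and 4.12 CPM at 24 h, against 231, 238 and 231 CPM unstimulated. The groups lay far apart in all 3, and no overlap was a condition for naming them. Tgm3, a transglutaminase, averaged 0.161 and 31.2 CPM, the endothelin receptor Ednra 0.0753 and 10.7 CPM, and the adhesion molecule Mcam 0.643 and 48.7 CPM. The kinase gene Dmpk averaged 0.136 and 41.0 CPM and its upstream neighbour Dmwd 0.776 and 103 CPM. Dmwd (chr7:19076227-19082776) ends just before Dmpk (chr7:19083849-19093821) on the same strand of GRCm38. Mrgpra2b, a Mas-related receptor with a close copy in Mrgpra2a that could share its reads, averaged 0.461 and 43.6 CPM. Lct, lactase, averaged 0.173 and 14.2 CPM, the collagen chain Col5a1 0.168 and 12.2 CPM, and Ifit3, an interferon-induced gene, 0.157 and 10.5 CPM.

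A list of 25 tested genes held GM-CSF and related receptor chains, Janus kinases, Stat factors and signalling partners. Of these 9 rose and 13 fell, against 40.7% and 37.7% of all genes. The median log2 fold change was -0.27, against 0.05 over all genes, and without the TMM factors 12 rose and 11 fell, with a median of 0.04. Cish, the feedback inhibitor CIS, is counted below with the SOCS family. It had 1070, 1060 and 1060 CPM at 24 h, against 6.48, 6.52 and 6.50 CPM in unstimulated cells, a log2 fold change of 7.35 ± 0.05 (edgeR adjusted p = 9.7e-72). Jak2, the receptor's kinase, had 529, 572 and 543 CPM at 24 h, against 117, 114 and 116 CPM. Csf2rb had 1190, 1170 and 1150 CPM at 24 h, against 615, 624 and 622 CPM, and its mouse copy Csf2rb2, with which it can share reads, averaged 376 and 57.7 CPM. For all of these, picked by low adjusted p or as key members, the groups were well apart. The alpha chain Csf2ra averaged 635 CPM at 24 h and 810 CPM in unstimulated cells, a log2 fold change of -0.35 that did not hold without the TMM factors. Of the other kinases and factors, Tyk2 rose by 0.93, and Jak3 (-1.94), Stat4 (-1.40) and Stat3 (-0.67) fell on the log2 scale. In the SOCS family 5 of 8 tested members rose and 1 fell (median 1.03). Socs2 had 1.82, 1.74 and 1.72 CPM at 24 h and 0 counts unstimulated, at least 29.2-fold higher. Socs1 averaged 88.6 CPM at 24 h and 12.6 CPM unstimulated, and Socs3, the one that fell, 330 and 678 CPM.

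The RefSeq promoter window of Cish is shown because it holds the Stat binding motif and its gene rose by 7.35 on the log2 scale. The window, chr9:107296409-107296708 on the plus strand of GRCm38.p6, runs from 250 bases before to 50 bases after the RefSeq start, which lies 633 bases inside the GENCODE gene. Capitals mark TTCNNNGAA, which reads the same on both strands.
Cish: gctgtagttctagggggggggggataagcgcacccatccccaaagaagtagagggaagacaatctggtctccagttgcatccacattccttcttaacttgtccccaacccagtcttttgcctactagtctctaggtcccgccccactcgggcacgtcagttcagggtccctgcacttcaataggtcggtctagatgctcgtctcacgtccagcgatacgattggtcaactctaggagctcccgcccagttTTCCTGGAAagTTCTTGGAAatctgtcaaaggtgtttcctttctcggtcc
The window held 2 matches, with first bases at the start site and 11 bases after it. Of 27025 RefSeq windows of this length 8.37% held the motif, as did 7.00% of the 8615 windows of tested genes and 2 of the 4 SOCS family windows. All motifs and promoters here were picked after the expression values were seen. A match is a run of letters, not evidence of binding.

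Surface receptors changed in both directions, as did all genes, of which 40.7% rose and 37.7% fell. Of 6 tested Fc receptor genes 4 rose and 2 fell. The inhibitory Fcgr2b had 2030, 2010 and 2010 CPM at 24 h, against 37.2, 39.3 and 39.4 CPM in unstimulated cells, a log2 fold change of 5.70 ± 0.04. The activating Fcgr3 averaged 1200 and 689 CPM and rose, whereas Fcgr4 at 94.4 and 126 CPM and the shared signalling chain Fcer1g at 380 and 516 CPM fell. The high-affinity receptor Fcgr1 averaged 7.54 and 0.0652 CPM.

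Among 24 tested interleukin and interferon receptor genes 17 rose and 5 fell (median 0.51). Il1rl2, the IL-36 receptor, had 382, 383 and 371 CPM at 24 h, against 1.47, 1.08 and 1.24 CPM in unstimulated cells, a log2 fold change of 8.22 ± 0.08. A processed pseudogene inside it, Gm17970, averaged 9.69 and 0.0204 CPM. The decoy receptor Il1r2 had 1150, 1170 and 1080 CPM at 24 h, against 187, 200 and 192 CPM, and Il10ra, the IL-10 receptor chain, had 258, 250 and 244 CPM, against 35.8, 36.1 and 34.3 CPM. The groups did not overlap in these 3 genes, as in 79.9% of all genes tested. Il4ra averaged 466 and 210 CPM and Il13ra1 235 and 85.1 CPM. In the TNF receptor superfamily 10 of 14 rose and 4 fell (median 0.75). Tnfrsf13b, which encodes TACI, a receptor for BAFF and APRIL, had 628, 623 and 618 CPM at 24 h, against 3.0, 2.35 and 2.47 CPM unstimulated. Its ligand gene Tnfsf13b, which encodes BAFF, moved the other way, at 1.21, 1.53 and 1.28 CPM at 24 h, against 63.9, 65.9 and 66.4 CPM. Tnfrsf26 averaged 136 and 6.79 CPM and Tnfrsf23 94.1 and 13.9 CPM, and both overlap an antisense transcript that averaged 33.8 and 1.12 CPM. Tnfrsf1b, a TNF receptor, averaged 263 and 153 CPM and rose, and Tnfrsf1a at 347 and 532 CPM and Tnfrsf21 at 37.3 and 146 CPM fell.

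Of 23 chemoattractant receptor genes 11 rose (47.8%) and 7 fell (30.4%), against 40.7% and 37.7% of all genes (median 0.11). Beside C3ar1, the chemerin receptor Cmklr1 had 30.7, 30.1 and 28.2 CPM at 24 h and 0.0537 to 0.122 CPM unstimulated. Ffar2, a receptor for short-chain fatty acids, had 355, 345 and 367 CPM at 24 h, against 25.9, 26.9 and 27.0 CPM, and the platelet-activating factor receptor Ptafr averaged 676 and 238 CPM. Among those that fell, Cxcr4, which holds neutrophils in the marrow, had 97.9, 94.3 and 93.9 CPM at 24 h, against 468, 456 and 454 CPM, and the formyl peptide receptors Fpr1 and Fpr2 averaged 182 and 176 CPM at 24 h, against 429 and 499 CPM. Cxcr2, the main chemokine receptor of neutrophils, averaged 1830 and 2120 CPM, a log2 difference of -0.21 that did not hold without the TMM factors.

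Of 22 Toll-like receptor and adaptor genes 13 rose and 8 fell (median 0.30). Tlr4, the receptor for lipopolysaccharide, had 295, 334 and 304 CPM at 24 h, against 79.1, 69.2 and 75.7 CPM, and Cd14, which delivers that ligand, averaged 97.5 and 39.2 CPM. Tlr13, a mouse receptor for bacterial ribosomal RNA, averaged 884 and 395 CPM. Tlr8 had 5.82, 6.64 and 5.74 CPM at 24 h, against 77.0, 70.6 and 74.7 CPM, and Tlr7, a receptor for single-stranded RNA, averaged 1.80 and 13.8 CPM, Tlr5, the flagellin receptor, 14.9 and 81.7 CPM. Among 13 C-type lectins 5 rose (38.5%) and 4 fell (30.8%), against 40.7% and 37.7% of all genes. Clec4n, which encodes dectin-2, had 369, 373 and 363 CPM at 24 h, against 7.58, 7.53 and 8.16 CPM, and Clec7a, dectin-1, averaged 842 and 480 CPM, while Clec4e, which encodes Mincle, averaged 71.6 and 331 CPM. The 28 adhesion genes split into 16 that rose and 12 that fell. The beta-1 integrin Itgb1 averaged 193 and 29.9 CPM, Pecam1 53.2 and 8.59 CPM and Icam1 43.9 and 6.03 CPM, whereas Itga4 averaged 9.94 and 95.8 CPM, Itgb2 1310 and 2960 CPM and Itgal 342 and 1080 CPM. Itgam, the CD11b partner of Itgb2, rose by 0.52 on the log2 scale.

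**Figure D2:**
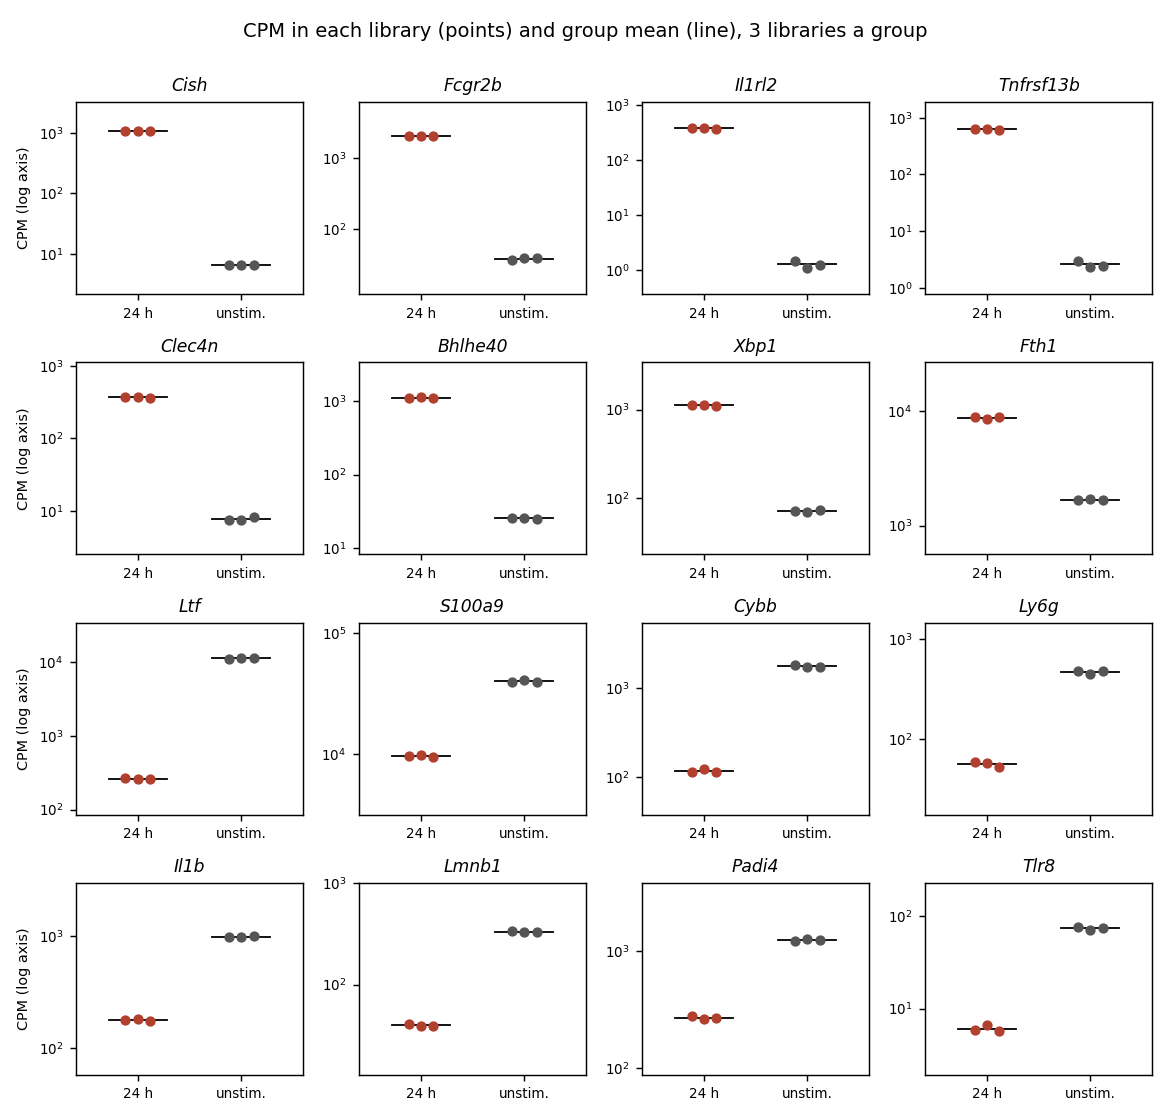
CPM (log axes) of 16 genes in each of the 3 libraries cultured for 24 h in GM-CSF (left, red) and the 3 unstimulated libraries (right, grey), with the group mean as a line. The libraries of a group lie close together and the groups do not overlap in any panel, as in 79.9% of all genes tested. The upper 8 genes rose, such as Fcgr2b at a mean of 2010 and 38.6 CPM, and the lower 8 fell, such as Ltf at 261 and 11400 CPM.

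Of 28 cytokine and growth factor genes 11 rose (39.3%) and 16 fell (57.1%), against 40.7% and 37.7% of all genes (median -0.37). Il17ra, 1 of those that fell, encodes a receptor. Il1b had 176, 182 and 173 CPM at 24 h, against 982, 974 and 988 CPM in unstimulated cells, and Osm, oncostatin M, had 64.7, 62.7 and 64.4 CPM, against 419, 422 and 429 CPM. Il15 averaged 3.64 and 46.3 CPM. Csf1, the macrophage colony-stimulating factor, had 199, 194 and 202 CPM at 24 h, against 34.2, 37.1 and 38.4 CPM, and Tgfb1 averaged 291 and 89.1 CPM. The IL-1 receptor antagonist Il1rn averaged 593 and 320 CPM and Tnf 69.0 and 31.8 CPM. Il1a, which encodes IL-1 alpha, averaged 3.25 and 0.0428 CPM and so moved opposite to Il1b. Of 11 chemokine genes 7 rose and 1 fell (median 2.28), with Ccl6 at 5980, 6310 and 6160 CPM at 24 h, against 1480, 1480 and 1440 CPM, Ccl3 at 108 and 17.5 CPM and Cxcl3 at 24.1 and 0.536 CPM. Of 18 prostaglandin and leukotriene genes 6 rose and 12 fell (median -0.65). The inducible cyclooxygenase Ptgs2 had 18.7, 21.7 and 19.5 CPM at 24 h, against 189, 183 and 184 CPM, and the constitutive Ptgs1 moved the other way, at 247, 244 and 238 CPM, against 61.6, 57.9 and 63.1 CPM. Tbxas1, thromboxane synthase, averaged 101 and 32.1 CPM and rose with Ptgs1. Alox5 at 344 and 766 CPM and Lta4h at 39.3 and 249 CPM, enzymes on the path to leukotriene B4, fell.

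All 23 tested genes of specific and gelatinase granule proteins fell (median -2.40). Ltf, lactoferrin, had 265, 257 and 260 CPM at 24 h, against 11100, 11500 and 11500 CPM in unstimulated cells, a log2 fold change of -5.45 ± 0.04. Ngp, the neutrophilic granule protein, had 348, 365 and 353 CPM at 24 h, against 11500, 11400 and 11300 CPM. Lcn2, an iron-siderophore binding protein, averaged 335 and 6390 CPM and Mmp8, neutrophil collagenase, 824 and 5640 CPM. The smallest falls of the list were those of Mmp9, gelatinase B, at 7260 and 9360 CPM, and Hp, haptoglobin, at 1840 and 2670 CPM. Of 16 S100 and stefin genes 13 fell and 2 rose (median -1.56). S100a9 had 9660, 9860 and 9460 CPM at 24 h, against 39300, 41000 and 39900 CPM, and its partner S100a8 averaged 7680 and 28400 CPM. Cstb and Cst3, cystatin inhibitors of cathepsins, were the 2 that rose, at 164 and 26.7 CPM and 474 and 303 CPM. The stefin A genes, which fell, are near-identical copies whose counts can be shared.

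Of 13 azurophil granule genes 4 rose (30.8%) and 7 fell (53.8%), against 40.7% and 37.7% of all genes (median -0.68). The defining member was low in both groups, with Mpo, myeloperoxidase, at 4.68 and 10.3 CPM. Lyz2, lysozyme M, had 829, 828 and 790 CPM at 24 h, against 11200 CPM in each unstimulated library, and Ctsc, the cathepsin that activates the serine proteases, had 114, 123 and 114 CPM, against 15.7, 12.9 and 15.3 CPM. Of 11 NADPH oxidase genes 9 fell and 2 rose (median -0.49). Cybb, the catalytic gp91phox, had 114, 122 and 115 CPM at 24 h, against 1810, 1730 and 1730 CPM, while its partner Cyba averaged 487 and 582 CPM, a difference whose direction did not hold without the TMM factors.

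Of 46 lysosomal genes 29 rose and 14 fell (median 0.90). Lipa, lysosomal acid lipase, had 668, 703 and 649 CPM at 24 h, against 61.5, 55.5 and 57.0 CPM, a log2 fold change of 3.54 ± 0.04. The cysteine protease Lgmn had 56.5, 54.3 and 58.3 CPM, against 1.65, 1.14 and 1.24 CPM, and cathepsin D, Ctsd, had 2590, 2510 and 2520 CPM, against 775, 799 and 785 CPM. The groups did not overlap in these 3, as in 79.9% of all genes tested. Npc1 and Npc2, which export cholesterol from the lysosome, averaged 228 and 56.4 CPM and 210 and 69.9 CPM, and the saposin precursor Psap 3010 and 1470 CPM. Among the 14 that fell were Man2b1, an alpha-mannosidase, at 485 and 755 CPM and Gm2a, a ganglioside activator, at 96.7 and 173 CPM. Of 18 subunits of the vacuolar proton pump, which acidifies the lysosome, 12 rose and 4 fell (median 0.32). Other degradative genes were more evenly split. Of all genes 40.7% rose and 37.7% fell. Of 36 autophagy genes 16 rose (44.4%) and 17 fell (47.2%), with a median of -0.05, and without the TMM factors 19 rose and 10 fell. Of 34 constitutive proteasome subunits 15 rose (44.1%) and 10 fell (29.4%), with a median of 0.09, and without the TMM factors 26 rose and 3 fell. Of 14 iron genes 8 rose (57.1%) and 5 fell (35.7%). Both ferritin chains were among the risers: Fth1 had 8970, 8640 and 8870 CPM at 24 h, against 1680, 1720 and 1680 CPM, and Ftl1 had 3410, 3280 and 3240 CPM, against 890, 897 and 870 CPM. The mitochondrial iron importer Slc25a37 averaged 53.0 and 272 CPM and fell. Of 27 antioxidant and NRF2 genes 20 rose and 6 fell (median 0.69). Gstm1, a glutathione transferase, averaged 125 and 2.49 CPM, Gclc, the catalytic subunit of glutathione synthesis, 29.0 and 2.23 CPM, Srxn1, sulfiredoxin, 48.7 and 3.87 CPM, and the mitochondrial superoxide dismutase Sod2 96.1 and 11.3 CPM. Mgst1 and Mgst2, microsomal transferases, fell, at 148 and 451 CPM and 9.97 and 62.4 CPM.

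**Figure D3:**
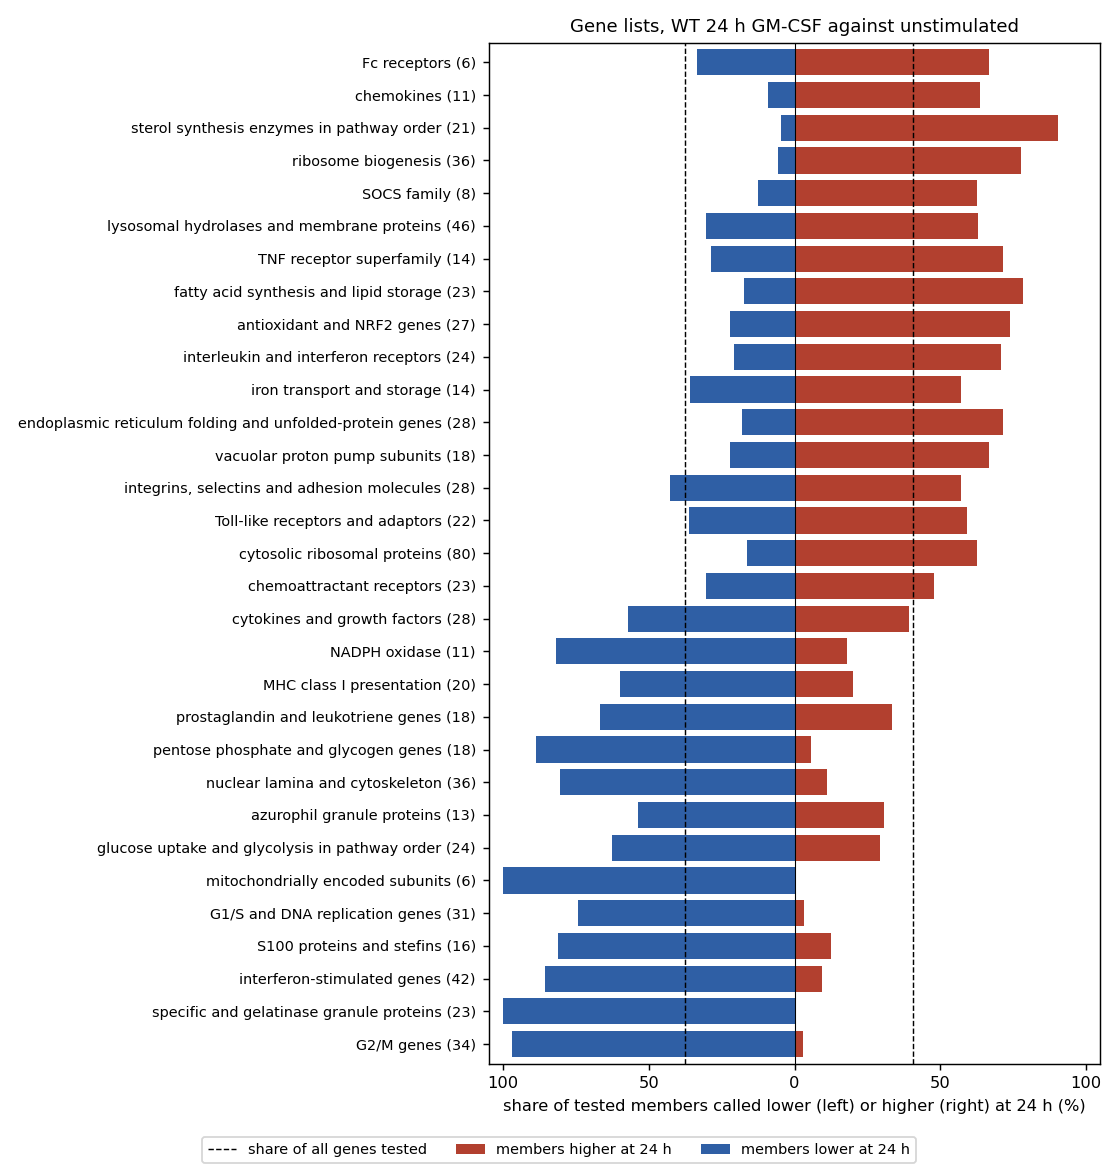
Share of the tested members of each gene list that were higher (red, right) or lower (blue, left) at 24 h in GM-CSF than in unstimulated WT neutrophils, in percent, with the number tested in brackets and lists ordered by median log2 fold change. Dashed lines are the shares of all genes tested, 40.7% higher and 37.7% lower. Every tested member of the specific granule list and of the mitochondrially encoded subunits was lower, and 19 of 21 sterol synthesis genes were higher.

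Of 21 sterol synthesis genes 19 rose, 1 fell and 1 did not pass (median 1.54). Fdps, farnesyl diphosphate synthase, had 34.7, 31.6 and 30.6 CPM at 24 h, against 0.856, 0.336 and 0.645 CPM, a log2 fold change of 5.68 ± 0.14. Acat2, which joins acetyl units, had 33.8, 34.7 and 32.5 CPM, against 1.65, 1.81 and 1.67 CPM, and Sqle, squalene epoxidase, had 38.6, 38.8 and 36.4 CPM, against 4.59, 3.83 and 4.67 CPM. Tm7sf2, one of the sterol reductases, averaged 1.63 and 4.15 CPM and fell. Fdft1 shares its 3′ end with Ctsb on the other strand, which also rose, so part of its counts is uncertain. Of 15 sterol uptake, sensing and efflux genes 9 rose and 3 fell. The sterol sensor Insig1 averaged 51.2 and 14.9 CPM, while the 3 that fell were Apoe, the lipid carrier, at 3.05 and 34.5 CPM, the cholesterol exporter Abca1 at 0.884 and 7.94 CPM, and Mylip, a ubiquitin ligase of sterol uptake, at 13.5 and 95 CPM. Of 23 fatty acid and lipid storage genes 18 rose and 4 fell (median 0.72). The lipid droplet coat Plin2 averaged 496 and 145 CPM and Fasn, fatty acid synthase, 10.0 and 0.879 CPM, whereas the triglyceride-forming Dgat1 and Dgat2 fell, at 159 and 618 CPM and 32.6 and 185 CPM.

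**Figure D4:**
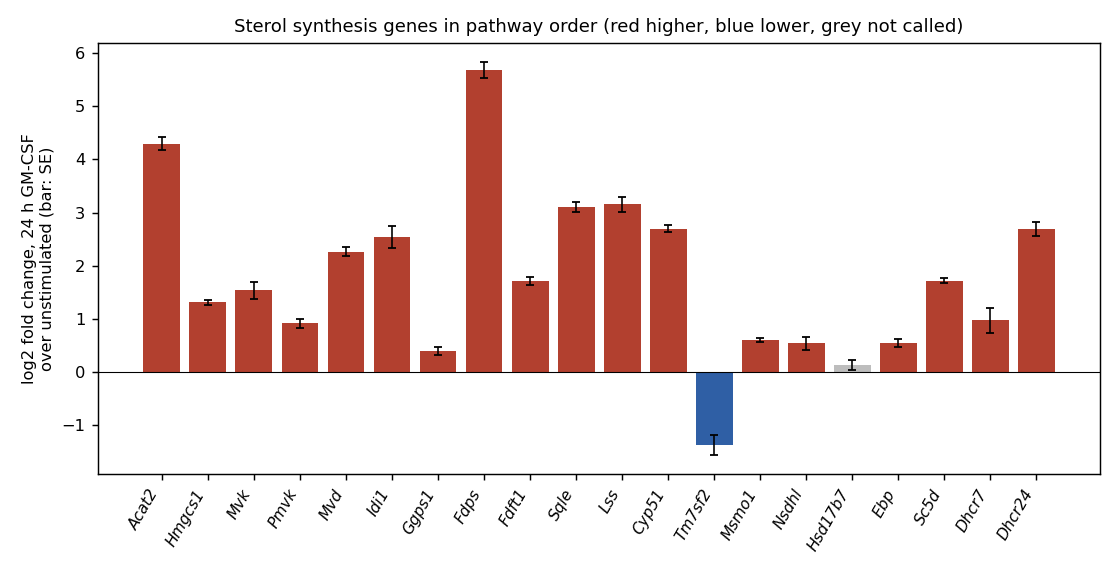
Log2 fold change of 24 h GM-CSF over unstimulated WT neutrophils for 20 of the 21 sterol synthesis genes in pathway order, with error bars of 1 SE. Red bars are genes that were higher, the blue bar is Tm7sf2, which was lower, and the grey bar is Hsd17b7, which did not pass the test. The tallest bars are those of Fdps (5.68) and Acat2 (4.30).

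Of 24 genes of glucose uptake and glycolysis 15 fell and 7 rose (median -0.68). Slc2a3, the glucose carrier GLUT3, had 470, 465 and 449 CPM at 24 h, against 1770, 1750 and 1780 CPM, and Gpi1, phosphoglucose isomerase, had 471, 454 and 466 CPM, against 1260, 1290 and 1300 CPM. Pgk1 averaged 43.8 and 159 CPM, Gapdh 197 and 579 CPM and Ldha, lactate dehydrogenase, 113 and 426 CPM. The groups were far apart in all of them, which were picked by low adjusted p or as key members. The carrier Slc2a1, GLUT1, went against the list, at 169 and 82.4 CPM, as did the phosphofructokinase Pfkl at 58.3 and 22.1 CPM. Of 18 pentose phosphate and glycogen genes 16 fell and 1 rose (median -0.65), with G6pdx, the first enzyme of the pentose phosphate path, at 198, 191 and 183 CPM at 24 h, against 735, 757 and 754 CPM, and the glycogen primer Gyg at 24.6 and 130 CPM. All 6 tested mitochondrially encoded subunits fell, mt-Co1 to 82.8, 91.6 and 87.5 CPM at 24 h, against 328, 316 and 316 CPM. Of the 13 such subunits 5 had 0 counts in both groups, so these counts do not cover the whole mitochondrial genome. Of 76 nuclear-encoded respiratory chain subunits 32 fell (42.1%) and 18 rose (23.7%), against 37.7% and 40.7% of all genes, with a median of -0.06. Without the TMM factors 15 fell and 44 rose, with a median of 0.25.

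Of 80 cytosolic ribosomal proteins 50 rose and 13 fell, with a median of only 0.25. Of 36 ribosome biogenesis genes 28 rose and 2 fell (median 1.18), at low levels, such as Bop1 at 13.7 and 5.04 CPM and Ddx21, a nucleolar helicase, at 12.3 and 3.03 CPM. Polr1a, the largest subunit of RNA polymerase I, fell, at 26.6, 26.9 and 23.8 CPM, against 193, 191 and 197 CPM. Of 28 endoplasmic reticulum folding genes 20 rose and 5 fell (median 0.39). Xbp1, the transcription factor of the unfolded protein response, had 1120, 1140 and 1100 CPM at 24 h, against 72.0, 69.3 and 72.8 CPM, a log2 fold change of 3.97 ± 0.04. These counts do not separate its spliced form. Pdia4, a disulfide isomerase, averaged 16.6 and 3.13 CPM, while Hspa5, the chaperone BiP, averaged 252 and 289 CPM, a change whose direction did not hold without the TMM factors. Slc7a5, a carrier of large neutral amino acids, had 60.4, 55.6 and 56.3 CPM at 24 h, against 2.26, 2.08 and 2.20 CPM.

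Proliferation genes are expressed by neutrophil precursors and silenced as they mature. Of 34 G2/M genes 33 fell and 1 rose (median -2.84). Mki67, which encodes the Ki-67 antigen, had 12.9, 13.8 and 13.9 CPM at 24 h, against 78.1, 77.1 and 82.8 CPM in unstimulated cells, and Top2a, topoisomerase II, had 6.15, 4.94 and 7.06 CPM, against 58.0, 57.5 and 57.7 CPM. The mitotic kinase Cdk1 averaged 0.921 and 9.33 CPM. The exception was the phosphatase Cdc25b, at 79.3 and 46.7 CPM. Of 31 genes of G1/S and DNA replication 23 fell and 1 rose (median -1.51), with E2f2, a transcription factor of the E2F family, at 55.3 and 351 CPM. Of 13 regulators of G1, 9 fell and 3 rose, with a median of -0.31. Without the TMM factors 6 fell and 6 rose, with a median of 0.004. The risers were the kinase Cdk6, at 85.7, 85.5 and 77.4 CPM at 24 h, against 9.23, 8.74 and 10.2 CPM, Cdkn1a, the inhibitor p21, at 49.7, 48.4 and 49.7 CPM, against 2.51, 2.02 and 2.15 CPM, and Cdk4 at 3.18 and 1.17 CPM. Most markers of erythroid cells moved with this group: of 7 tested 6 fell and 1, Car2, rose. The 10 matched markers summed to 10.8 to 12.6 CPM at 24 h and 45.2 to 47.4 CPM in unstimulated cells, with Hbb-bs at 3.80 and 21.3 CPM. The part of erythroid cells in the result was not tested.

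Promoters of the G2/M genes are shown for 2 members whose window held the cell cycle homology region motif TTTGAA. Capitals mark it on either strand. Ube2c, a ubiquitin-conjugating enzyme of mitosis at 1.11 and 12.5 CPM, has its window at chr2:164769679-164769978 (plus strand), and Kif22, a kinesin at 0.720 and 7.52 CPM, at chr7:127042371-127042670 (minus strand), both on GRCm38.p6 from RefSeq.
Ube2c: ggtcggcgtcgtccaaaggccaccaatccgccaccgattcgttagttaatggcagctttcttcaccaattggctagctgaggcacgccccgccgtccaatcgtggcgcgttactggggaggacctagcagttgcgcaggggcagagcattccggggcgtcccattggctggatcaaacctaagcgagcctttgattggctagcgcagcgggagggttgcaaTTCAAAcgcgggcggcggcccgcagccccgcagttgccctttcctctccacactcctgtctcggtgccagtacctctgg
Kif22: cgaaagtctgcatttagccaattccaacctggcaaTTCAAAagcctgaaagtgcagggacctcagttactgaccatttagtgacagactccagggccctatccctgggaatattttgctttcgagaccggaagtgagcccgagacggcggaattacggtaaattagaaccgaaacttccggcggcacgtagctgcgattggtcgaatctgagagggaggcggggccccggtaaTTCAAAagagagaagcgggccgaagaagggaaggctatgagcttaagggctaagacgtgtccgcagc
The motif was found in 20 of 27 G2/M windows (74.1%), against 18.1% of all RefSeq windows and 12.1% of those of tested genes. The motif CCAAT, which neither contains TTTGAA nor lies within it, was found in 25 of 27 (92.6%), against 37.9% and 39.2%. It was also in 14 of 16 sterol synthesis windows (87.5%), where TCACNCCAC, a sterol regulatory element, was in 1 of 16 (6.25%) and in 0 of 11 windows of sterol regulation genes, against 1.21% and 1.07%. The lysosomal motif TCACGTGA was in 3 of 36 lysosome windows (8.33%) and 3 of 12 proton pump windows (25%), against 1.0% and 2.22%. The antioxidant motif TGACNNNGC was in 6 of 23 antioxidant windows (26.1%), against 12.5% and 15.2%. Both strands were searched in each case, and these shares are descriptions of the letters in the windows.

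Interferon-stimulated genes fell below their level in fresh cells. Of 42 tested 36 fell and 4 rose (median -2.08). Rsad2, the antiviral enzyme viperin, had 5.49, 5.42 and 5.79 CPM at 24 h, against 78.9, 79.6 and 78.1 CPM in unstimulated cells, and the transcription factor Irf7 averaged 21.5 and 96.7 CPM. Isg15, a ubiquitin-like modifier, had 2.14, 1.18 and 1.42 CPM at 24 h, against 14.1, 16.9 and 17.0 CPM. The 4 that rose were Oasl2, at 1080, 1100 and 1070 CPM, against 164, 170 and 167 CPM, and, by less, Gbp7, Parp14 and Ifitm1. Of 20 genes of MHC class I presentation 12 fell and 4 rose (median -0.62), with the peptide transporter Tap1 at 58.4 and 130 CPM and the light chain B2m at 502 and 729 CPM. Of 13 MHC class II and costimulatory genes 6 rose and 2 fell. The class II chains H2-Aa, H2-Ab1 and H2-Eb1 averaged 0.282 to 0.388 CPM at 24 h and 0.409 to 0.479 CPM in unstimulated cells and did not pass the test, whereas their invariant chain Cd74 had 61.2, 60.8 and 63.9 CPM at 24 h, against 5.93, 7.53 and 5.48 CPM. Cd274, which encodes PD-L1, had 161, 155 and 156 CPM, against 11.4, 11.9 and 12.3 CPM, and Pdcd1lg2, PD-L2, averaged 20.6 and 0.204 CPM.

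Promoters of 2 interferon-stimulated genes that hold the interferon-stimulated response element (TTTC, any 2 bases, TTTC) are shown, with the motif in capitals on either strand. Ifit3 lies at chr19:34583279-34583578 (plus strand) and Rsad2 at chr12:26456403-26456702 (minus strand), on GRCm38.p6 from RefSeq.
Ifit3: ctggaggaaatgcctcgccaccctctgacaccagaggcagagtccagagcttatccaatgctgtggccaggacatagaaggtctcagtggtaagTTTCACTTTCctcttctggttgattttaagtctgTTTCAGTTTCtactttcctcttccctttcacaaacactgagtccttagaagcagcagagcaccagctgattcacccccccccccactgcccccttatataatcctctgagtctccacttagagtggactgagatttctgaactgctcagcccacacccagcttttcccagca
Rsad2: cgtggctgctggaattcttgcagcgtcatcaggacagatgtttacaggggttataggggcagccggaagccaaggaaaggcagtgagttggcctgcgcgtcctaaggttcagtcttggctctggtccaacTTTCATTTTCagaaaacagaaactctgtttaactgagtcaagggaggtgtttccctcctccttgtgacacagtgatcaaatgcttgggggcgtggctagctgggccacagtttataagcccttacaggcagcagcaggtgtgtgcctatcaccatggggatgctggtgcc
The motif was in 22 of 34 windows of these genes (64.7%), against 3.50% of all RefSeq windows and 3.31% of those of tested genes. Ifit3 held 2 matches and Rsad2 held 1.

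Survival genes changed on both sides, as did all genes, of which 40.7% rose and 37.7% fell. Of 21 anti-apoptotic genes 10 rose (47.6%) and 9 fell (42.9%), near those shares. The median of -0.05 became 0.26 without the TMM factors. Bcl2l1, which encodes Bcl-xL, had 186, 190 and 182 CPM at 24 h, against 40.5, 38.8 and 39.0 CPM, and the kinase Pim1 had 1390, 1370 and 1390 CPM, against 372, 387 and 381 CPM. Bcl2a1a, Bcl2a1b and Bcl2a1d, which encode A1, averaged 69.0, 32.2 and 19.6 CPM at 24 h and 0.571, 0.231 and 0.144 CPM in unstimulated cells. They are near-identical copies, so the split among them is uncertain. Mcl1, a main survival factor of fresh neutrophils, averaged 1550 and 1920 CPM, a difference whose direction did not hold without the TMM factors. Of 23 pro-apoptotic genes 11 rose (47.8%) and 9 fell (39.1%), also near the shares of all genes (median 0.15). Bcl2l11, which encodes Bim, averaged 96.1 and 26.7 CPM, Pmaip1, which encodes Noxa, 117 and 21.0 CPM, and Bax 34.2 and 5.83 CPM, all higher, while the inflammatory caspases Casp1 and Casp4 fell, at 6.86 and 42.9 CPM and 9.30 and 31.0 CPM.

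Of 55 myeloid transcription factor genes 24 rose (43.6%) and 27 fell (49.1%), against 40.7% and 37.7% of all genes, with a median of -0.06. Without the TMM factors 29 rose and 21 fell, with a median of 0.25. Bhlhe40, a repressor of the clock family, had 1110, 1120 and 1100 CPM at 24 h, against 26.1, 25.7 and 24.8 CPM, a log2 fold change of 5.44 ± 0.04. Tfec, of the family of lysosomal regulators, had 34.9, 37.4 and 38.0 CPM, against 0.0611, 0.134 and 0.215 CPM. Cebpe, a factor of late granulocyte maturation, had 32, 28.2 and 32.3 CPM, against 118, 131 and 122 CPM, and Gfi1, a repressor in granulocyte precursors, averaged 1.32 and 8.93 CPM. Of the other C/EBP genes in the list, Cebpd averaged 156 and 385 CPM, Cebpb 788 and 681 CPM and Cebpa 45.6 and 52.9 CPM, the last a difference whose direction did not hold without the TMM factors. Bcl6, a repressor, averaged 45.9 and 281 CPM, and Spi1, which encodes PU.1, 506 and 797 CPM. Irf5 averaged 198 and 40.2 CPM and was one of 2 rising members among 6 interferon regulatory factors. Of 36 genes of the nuclear lamina and cytoskeleton 29 fell and 4 rose (median -0.66). Lmnb1, lamin B1, had 41.1, 38.8 and 39.0 CPM at 24 h, against 335, 333 and 329 CPM, Vim, vimentin, averaged 252 and 844 CPM and Flna, filamin A, 1910 and 4640 CPM. Padi4, the enzyme that citrullinates histones in extracellular traps, had 277, 264 and 271 CPM, against 1210, 1270 and 1240 CPM.

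Libraries of WT cells after 4 h showed when these changes arose. From unstimulated cells to 4 h 8826 genes (76.3%) changed, and 8714 (75.3%) changed between 24 h and 4 h. These counts share libraries with the main comparison. Rises of Cish (1150 CPM at 4 h), Fcgr2b (2380 CPM), Bhlhe40 (1360 CPM) and Xbp1 (1520 CPM) were in place by 4 h. Of the genes that differed between 24 h and 4 h, 4128 were higher at 24 h and 4586 lower. That split was 6763 and 2506 without the TMM factors, and 4558 and 4275 with TMM factors from these 2 groups alone, so the direction of small differences between these times is uncertain. Il1rl2, by contrast, averaged 84.7 CPM at 4 h and Lipa 88.6 CPM, and both rose further by 24 h, by 2.16 and 2.93 on the log2 scale. Ptgs1 averaged 60.9 CPM in unstimulated cells, 54.4 CPM at 4 h and 243 CPM at 24 h, and the leukotriene receptor Cysltr1 averaged 0.162, 0.260 and 5.99 CPM at the same times. Interferon-stimulated genes had first gone up: 40 of 42 were higher at 4 h than in unstimulated cells, against 38.1% of all genes, with a median log2 fold change of 1.90, and 41 of 42 were lower at 24 h than at 4 h, against 39.6% of all genes. Gbp2 averaged 31.7 CPM in unstimulated cells, 1170 CPM at 4 h and 4.25 CPM at 24 h. Class I presentation followed the same course, with 17 of 20 higher at 4 h. Sterol synthesis showed no common direction at 4 h, with 9 of 21 higher and 9 lower, and 19 of 21 were higher at 24 h than at 4 h. Ribosomal protein genes were lower at 4 h than in unstimulated cells in 44 of 80, against 38.2% of all genes, and 56 were higher at 24 h than at 4 h, against 35.7%. Of 18 proton pump genes 16 were higher at 4 h, against 38.1% of all genes, and 14 were lower at 24 h than at 4 h, against 39.6%. The median of this later fall was -0.53. Between these times the median over all genes was -0.04 with the TMM factors and 0.45 without them, so the fall may depend on the scaling.

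**Figure D5:**
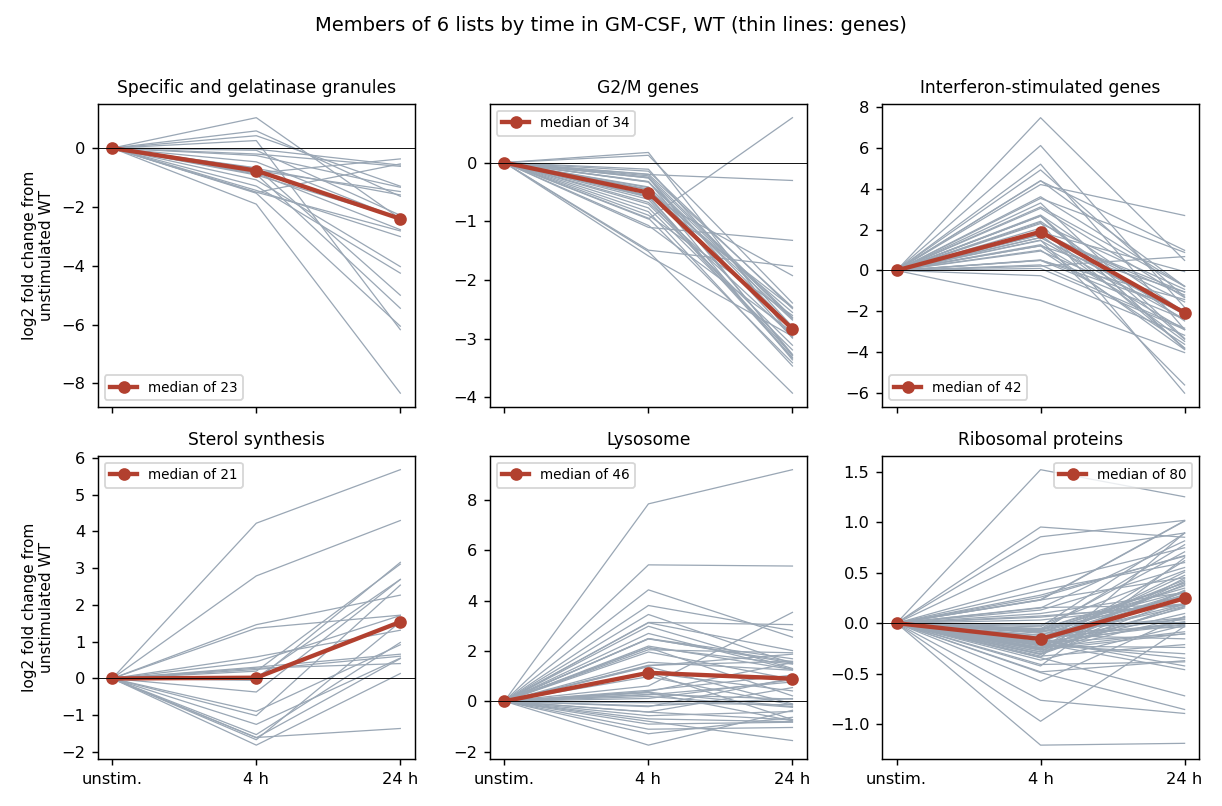
Log2 fold change from unstimulated WT neutrophils (y axis) at 4 h and 24 h in GM-CSF for the tested members of 6 gene lists, with thin lines for genes and the red line for the list median. At 24 h 21 of 23 specific granule genes and 32 of 34 G2/M genes were lower than at 4 h, interferon-stimulated genes had a median of 1.90 at 4 h and -2.08 at 24 h, and sterol synthesis genes had a median of 0.02 at 4 h and 1.54 at 24 h.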

How the data were processed

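RNA was sequenced from FACS-sorted mouse bone marrow neutrophils in 18 libraries, of which 6 are described here; the 3 libraries of WT cells at 4 h and those labelled CIS-/- entered the fit. The deposited values are whole-number counts per gene, made by the authors with featureCounts after Trimmomatic and STAR; the submitters' processing notes name these tools and mm10. Tool versions and the strand setting were not stated there. Of 53379 gene IDs, 53274 were matched to GENCODE M21 names and coordinates. Unmatched IDs held 0.0238% of counts. Counts were normalised by TMM factors and filtered with filterByExpr (11569 genes, 99.928% of counts). They were fitted with edgeR 4.0.16 (quasi-likelihood, robust prior, 1 mean for each of 6 groups), which was tested on simulated data. In those data few genes changed, evenly up and down, so the scaling was not tested. Benjamini-Hochberg adjusted p below 0.05 was called. SE is the log2 fold change over the root of its F value. Genes with 0 counts in a group got a lower bound against 3 counts over the group. In the 6 libraries described, replicates differed by more than sampling noise (chi-square per degree of freedom 1.49 to 3.06). Libraries labelled CIS-/- at 24 h differed by 2.54 to 9.32 on that measure, and they entered the fit and the comparison of genotypes. Alternatives were RLE factors, library sizes alone, DESeq2 1.42.0, limma-voom 3.58.1, other filters, the compared groups only, a replicate block, a non-robust prior and leaving out each library.

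Genes were named by rule: the 12 largest changes each way above 10 CPM, and from every list its key members and the 5 of lowest adjusted p. Bop1, C1qa, Cd34, Cd79a, Cdc25b, Cdh5, Col3a1, Cst3, Cysltr1, E330020D12Rik, Gbp7, Gclc, Gm17970, Gm2a, H2-Eb1, Hsd17b7, Ifitm1, Il17ra, Il1a, Jak3, Kif22, Man2b1, Mgst2, Mrgpra2a, Parp14, Pecam1, Psap, Stat4, Tm7sf2, Tnfrsf1a and Tyk2 lie outside it and were chosen after their values were seen. Some list members are counted but not reported here by name. The members and lists were chosen with earlier results of these data known. Promoter windows and sequences are from RefSeq (GRCm38.p6).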

Additional observations from a re-analysis of the deposited data

Results flagged for a closer look

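For 9 of the 24 genes with the largest changes, the 24 h change in libraries labelled CIS-/- differed from that in WT (interaction term in edgeR, adjusted over all genes). Over all genes 7489 (64.7%) differed. Replicates labelled CIS-/- at 24 h differed by a chi-square per degree of freedom of up to 9.32, against up to 3.06 in WT. Cish itself averaged 238 CPM in libraries labelled CIS-/- at 24 h, against 1060 CPM in WT. In unstimulated libraries it averaged 18.7 CPM in those labelled CIS-/-, against 6.50 CPM in WT. The labels do not give the deleted part of the gene, so these counts do not test the label. Each difference below is the change in libraries labelled CIS-/- minus the change in WT on the log2 scale.

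F10 had 1520, 1430 and 1420 CPM at 24 h in libraries labelled CIS-/- and 0.609, 0.571 and 0.322 CPM in their unstimulated libraries, a difference of 2.15 (edgeR adjusted p = 7e-07). Acvrl1 had 20.8, 21.9 and 21.6 CPM and 278, 280 and 276 CPM, so its fall was smaller than in WT, by 2.16 (edgeR adjusted p = 3.2e-29). Lrp12 had 324, 340 and 355 CPM and 0 to 0.0634 CPM (3.87, edgeR adjusted p = 0.00055), and Gpr55 had 212, 201 and 204 CPM and 0.913, 0.951 and 1.61 CPM (-1.42, edgeR adjusted p = 3.7e-05). In both genotypes the 24 h libraries lay above the unstimulated ones for F10, Lrp12 and Gpr55.

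The other 5 genes had lower means at 24 h than in unstimulated libraries in both genotypes. The difference was 0.37 for Camp (edgeR adjusted p = 0.00034), 0.86 for Dmwd (edgeR adjusted p = 0.0021) and -1.46 for Mcam (edgeR adjusted p = 0.0039). The median difference over all genes was -0.02 with the TMM factors and -0.51 without them. The direction of small differences such as that of Camp is therefore uncertain. Lct (-4.41, edgeR adjusted p = 0.0023) and Ednra (-3.63, edgeR adjusted p = 0.039) had 0 counts in all 3 libraries labelled CIS-/- at 24 h. The fitted differences of these and of Lrp12, at or near 0 in unstimulated libraries, depend on the prior count and are no bounds.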

How the results depend on the processing

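The count of 9068 genes called between 24 h and unstimulated WT cells was 8719 with DESeq2, 9074 with RLE factors, 9078 with limma-voom, 9171 with the compared groups only, 9569 of 23986 genes without a filter and 7593 of 9054 under the strict filter of 50 counts, and 8726 to 8855 without 1 library. It was 9516 with library sizes alone, where 257 of 8128 shared calls reversed. A call that also needs a log2 fold change of at least 1 left 4004 genes, 1954 higher and 2050 lower. Library sizes alone gave 6763 higher and 2506 lower genes at 24 h against 4 h, and 2028 higher and 6178 lower for the difference between genotypes. The cause was not tested.

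With library sizes alone the list medians reversed to 0.044 for GM-CSF receptor and Janus kinase genes, 0.25 for respiratory subunits, 0.004 for G1 regulators, 0.26 for anti-apoptotic genes (0.23 under the strict filter), 0.257 for autophagy genes (0.008 under the strict filter) and 0.25 for myeloid transcription factors. The C-type lectin median of 0.11 was -0.032 to 0.220 without 1 library, the lowest without unstimulated library 1. Single genes that reversed with library sizes alone were Cxcr2 (0.10), Cebpa (0.09), Cyba (0.05), Hspa5 (0.11), Mcl1 (0.01), H2-Aa (0.12) and H2-Eb1 (0.07). Cebpb (0.21) was not called without 24 h library 3 (0.15). Without 1 library H2-Aa ran from -0.60 to 0.06 and H2-Ab1 from -1.13 to 0.07, positive without 24 h library 3 or unstimulated library 2 for H2-Aa and without unstimulated library 3 for H2-Ab1.

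The labels do not say whether libraries of the same replicate number were paired. Deviations of same-numbered 24 h and unstimulated libraries had correlations of 0.0276, 0.0425 and -0.0131. Those of differently numbered libraries were -0.0506 to 0.022. With 3 libraries a group these values cannot settle whether pairing was present. With the replicate block 9072 genes were called (24 h against 4 h, 8711; 4 h against unstimulated, 8830; genotype difference, 7488). Low counts limit precision: genes with under about 1 CPM rest on few reads per library.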
